A study of Mus musculus with 6 samples.

Results

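The genes described here are 10 mouse genes tied to the fusion protein PML/RARα of acute promyelocytic leukemia (APL). Pml, Sp100, Daxx and Rnf4 encode proteins of the PML nuclear body and of the pathway that degrades PML. Zbtb16, Npm1, Numa1, Prkar1a, Fip1l1 and Bcor are known as partners of RARA in rare APL fusions, whereas Pml is the partner in PML/RARα. The 10 genes were chosen by name, with earlier results of these data known, and all of them are among the 16440 genes of the deposited table. RNA sequencing covered 6 libraries from FVB N/J mice, 3 of normal myeloid progenitors (MPs; bone marrow cells sorted as Lin-Sca-1-c-Kit+) and 3 of APL progenitors (GFP-labeled cells sorted as c-Kit+). The APL cells came from a leukemia of the hMRP8-PML/RARα model, in which a human MRP8 promoter drives the fusion in myeloid cells, had been labeled with the GFP retrovirus MigR1 and were expanded by transplantation into syngeneic mice. The labels of the normal MPs name no transgene or GFP, and those of neither group name ATRA or arsenic. The series calls the 3 libraries of a group biological replicates without saying whether they came from separate mice, so p-values measure the spread between these libraries.

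PML nuclear bodies are spherical structures that PML builds in the nucleus once it is modified by the small protein SUMO. They recruit SP100 and DAXX, which carry SUMO or bind it, together with many proteins that visit the bodies, and they are known to take part in interferon responses, chromatin assembly and p53 signaling. In APL, PML/RARα disperses the bodies, and arsenic restores them by driving SUMO onto the PML part, after which the SUMO-targeted ubiquitin ligase RNF4 marks PML and PML/RARα for degradation.

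The values used are scaled fragments, that is, sequenced fragments per gene that the authors' processing had multiplied by a factor of each library, and FPKM, the same quantity per length of transcript and per library size, which allows levels of different genes to be compared. Before scaling, the libraries held between 22976905 and 26932327 fragments in MPs and between 20608715 and 28382785 in APL progenitors. Differences were tested with limma on log2(scaled fragments + 1) over 14595 genes, and a gene was called at an adjusted p (Benjamini-Hochberg over all genes tested) under 0.05 with a fold change over 1.5. By this rule 46.1% of all genes tested were called, 21.7% higher and 24.4% lower in APL progenitors, so the 2 populations differed widely. The sorted populations also differed in the RNA of cell type markers. Of the 10 erythroid markers listed, 9 were lower in APL progenitors and their summed level was between 2314 and 2912 FPKM in MPs and between 15.5 and 27.2 in APL progenitors, with none at 0 in all APL libraries. Of the 6 megakaryocyte markers 5 were lower (68.8 to 104 against 3.53 to 4.83 FPKM), whereas of the 8 granulocytic precursor markers 5 were higher and 1 lower (8924 to 10161 against 24353 to 28820 FPKM). Of the 8 monocyte and dendritic markers 6 were lower and 1 higher (80.7 to 102 against 22.8 to 24.2 FPKM), of the 5 mast cell and basophil markers 3 were lower and 1 higher (82.6 to 110 against 42.5 to 50.7 FPKM), and of the 8 lymphoid markers 5 were lower (20.5 to 29.2 against 0.455 to 0.716 FPKM), with Cd3g and Rag1 at 0 in all APL libraries and Cd3e at 0 in all MP libraries. Kit, on which both sorts rested, was present in every library and fell from 10668 ± 272 to 5929 ± 132 scaled fragments (SD, n = 3 each). In bulk RNA, fewer cells of a type and less RNA per cell cannot be told apart, and the part of these marker changes in the results below was not tested.

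All 10 genes passed the filter on low values. Sp100 was called higher in APL progenitors, Pml, Npm1 and Zbtb16 were called lower, and the other 6 were not called. The share called, 40%, was near the 46.1% of all genes. For 8 of the 10 genes all APL values stood on one side of all MP values, 7 times below and once above, against 70.9% of all genes tested. The median log2 fold change over the 10 genes was −0.34, and −0.10 over all genes. As a single comparison, each of the 8 separated genes gave p = 0.1 in a two-sided exact permutation test, the smallest p that 3 libraries against 3 allow.

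**Figure D1:**
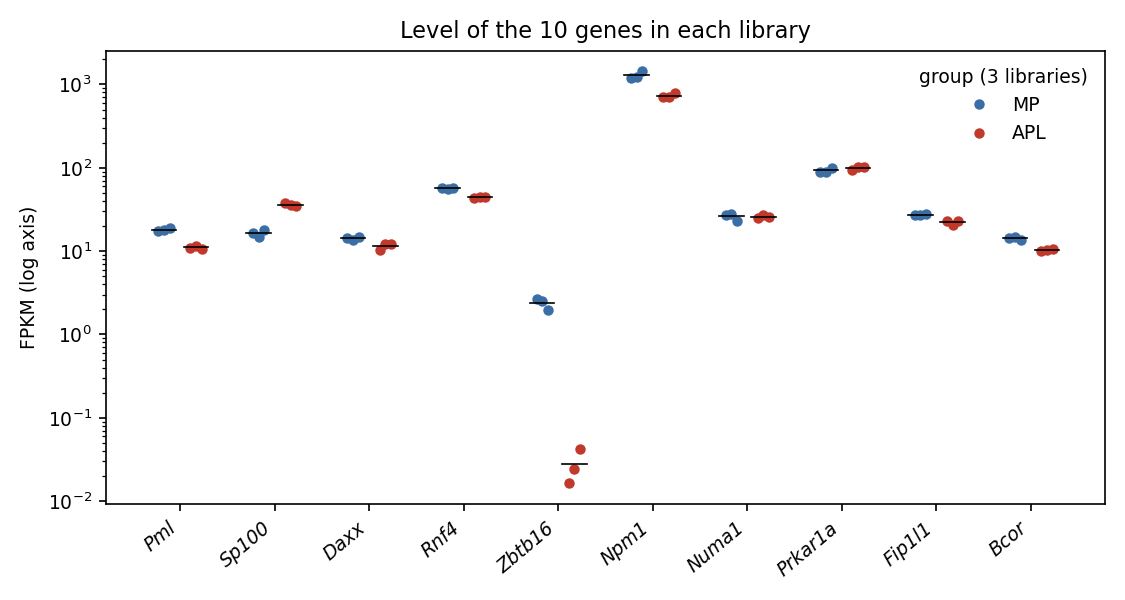
FPKM (log axis) of each of the 10 genes in each library; points are libraries, blue for normal MPs and red for APL progenitors, and black bars are group means (n = 3). Npm1 lies highest in both groups, Zbtb16 lowest, with the APL points of Zbtb16 between 0.0163 and 0.0427 FPKM, and Sp100 is the gene whose APL points all lie above its MP points.

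Because Pml and Sp100 are the PML body genes that were called, the start regions of both are shown, from RefSeq on GRCm38.p6, as 250 bases before to 50 bases after the start site on the coding strand. The RefSeq start site nearest the deposited start of the gene was used, 85650014 for Sp100, which has 2 start regions in the table, and 58249786 for Pml. The Sp100 region is chr1:85649764-85650063 on the plus strand and the Pml region chr9:58249737-58250036 on the minus strand. Capitals mark matches, on either strand, to the motifs named next.
Sp100: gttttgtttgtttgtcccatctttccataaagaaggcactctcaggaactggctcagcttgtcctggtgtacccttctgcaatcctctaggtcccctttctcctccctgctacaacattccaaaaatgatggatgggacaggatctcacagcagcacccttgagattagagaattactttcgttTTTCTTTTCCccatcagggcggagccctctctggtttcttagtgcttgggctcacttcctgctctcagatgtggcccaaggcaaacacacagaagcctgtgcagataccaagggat
Pml: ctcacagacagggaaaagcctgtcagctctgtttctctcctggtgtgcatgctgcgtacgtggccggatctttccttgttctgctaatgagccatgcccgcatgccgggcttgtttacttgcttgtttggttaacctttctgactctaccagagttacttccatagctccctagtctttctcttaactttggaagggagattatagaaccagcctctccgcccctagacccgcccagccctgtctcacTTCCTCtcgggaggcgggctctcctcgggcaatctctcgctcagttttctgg
The Sp100 region held 1 match to the ETS and IRF composite element (EICE: GGAA, 2 bases of any kind, GAAA), found on the opposite strand from 66 bases before that start site (the RefSeq record of the gene, over all its transcripts, begins further upstream, at 85649948), and the Pml region held 1 match to an ETS type core (GAGGAA), on the opposite strand across the start site. Neither region held the interferon response element core (GAAA, 2 bases of any kind, GAAA), the STAT element GAS (TTCNNNGAA) or the nuclear receptor element AGGTCA. Among 32851 start regions of the same length, 2.72% held EICE, 28.3% the ETS type core, 3.44% the interferon response element core, 8.3% GAS and 16.3% AGGTCA. Of the 8 genes with a start region in the table, the interferon response element core was found in Bcor, GAS in Fip1l1 and Bcor, and AGGTCA in none. EICE and the interferon response element core share their GAAA end but differ in their second base, so the same bases cannot match both on one strand, although shifted matches may overlap. These were 5 of 15 motifs searched, chosen after the values were known, and a match describes letters only.

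Pml (chromosome 9 of GRCm38, 58217179 to 58249786) encodes the scaffold of the bodies. Its values, in scaled fragments and in the order of the library numbers here and below, were 2445, 2519 and 2720 for MPs and 1560, 1650 and 1522 for APL progenitors. The groups did not overlap, and the highest APL library stood well under the lowest MP library. The mean fell from 2562 ± 142 to 1577 ± 65.7 (SD, n = 3 each), to 61.6% of the MP level (log2 fold change −0.70 ± 0.07 SE, limma adjusted p = 3e-05). In FPKM the mean was 18.0 ± 0.843 in MPs and 11.1 ± 0.387 in APL progenitors. The human PML/RARα transcript was not measured apart from the mouse genes, so fragments of it that aligned to mouse Pml or Rara cannot be told apart from those of the mouse genes. Mouse Rara, the receptor gene, was also lower, with 119, 129 and 134 scaled fragments in MPs and 74.4, 84.1 and 80.2 in APL progenitors (log2 fold change −0.67 ± 0.15 SE, limma adjusted p = 0.0038). Rara was not called with quantile normalization (log2 fold change −0.42) or with log2(FPKM + 1) (−0.35).

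Sp100 (chromosome 1, 85650049 to 85709448) encodes a constant protein of the bodies and is an interferon-induced gene. Its values were 1220, 1060 and 1274 scaled fragments in MPs and 2695, 2500 and 2538 in APL progenitors. The APL libraries were all above the MP libraries, by a margin much wider than the spread in either group. The mean rose 2.18-fold, from 1185 ± 112 to 2578 ± 103 (log2 fold change 1.12 ± 0.08 SE, limma adjusted p = 4.1e-06). In FPKM, Sp100 went from 16.3 ± 1.5 in MPs, where its range overlapped that of Pml, to 36.0 ± 1.93 in APL progenitors. The FPKM ratio of Sp100 to Pml was 0.956, 0.821 and 0.935 in the MP libraries and 3.49, 3.08 and 3.21 in the APL libraries. The 2 genes were thus near each other per length in MPs, and Sp100 was above Pml in each of the APL libraries (exact permutation p = 0.1, the smallest possible). After division by the library's step, the value of a single fragment, Sp100 was a whole number in 1 of 6 libraries within 0.02, against 89.1% of all values between 500 and 5000 fragments, so its values are estimates and not numbers of whole fragments.

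Relatives of Sp100 lie beside it. Sp110 and Sp140, which encode other proteins of the Sp100 family and share the locus 85576898 to 85645036 in the deposited table, were both called higher. Sp140 had 1207, 1060 and 1351 scaled fragments in MPs and 4277, 4092 and 4153 in APL progenitors (log2 fold change 1.8 ± 0.09 SE). Sp110 had 2793, 2501 and 3037 in MPs and 8192, 8784 and 8438 in APL progenitors (log2 fold change 1.61 ± 0.08 SE). Sp100, Sp110 and Sp140 therefore each had every APL library above every MP library. Over all genes tested, 70.9% had the APL values all on one side of the MP values. After division by the library's step, Sp140 was a whole number in 1 of 6 libraries within 0.02 and Sp110 in 2. Their values are thus estimates, as those of Sp100 are. How far the 3 genes shared fragments with each other or with other genes of the region was not tested. In RefSeq, Sp110 (minus strand, 85570735 to 85610850) and Sp140 (plus strand, 85587491 to 85645040) overlap, and without a statement that strand was used, fragments of this overlap cannot be assigned to one of them. Downstream of Sp100, among genes with a mean of at least 50 scaled fragments, none was called: A630001G21Rik, which starts 67.0 kb from the Sp100 start, had a log2 fold change of −0.01 and Cab39, at 143.4 kb, 0.10. Gpr55 (1.81) and Htr2b (1.58), further downstream, were called higher at means of 1.29 and 1.03 scaled fragments. On the other side, C130026I21Rik, 403.7 kb away, had 187, 158 and 176 scaled fragments in MPs and 11902, 11484 and 11286 in APL progenitors, a log2 fold change of 6.05, and Gm7609, 450.4 kb away, had 3.54. After the same division, C130026I21Rik and Gm7609 were whole numbers in 1 of 6 libraries each, against 6 of 6 for A630001G21Rik and Cab39. The values of C130026I21Rik and Gm7609 are thus estimates too, and whether they shared fragments with Sp100, Sp110 or Sp140 was not tested. The neighbours were looked up after the value of Sp100 was known, and genes of this region that were not listed by the authors were not used here.

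**Figure D2:**
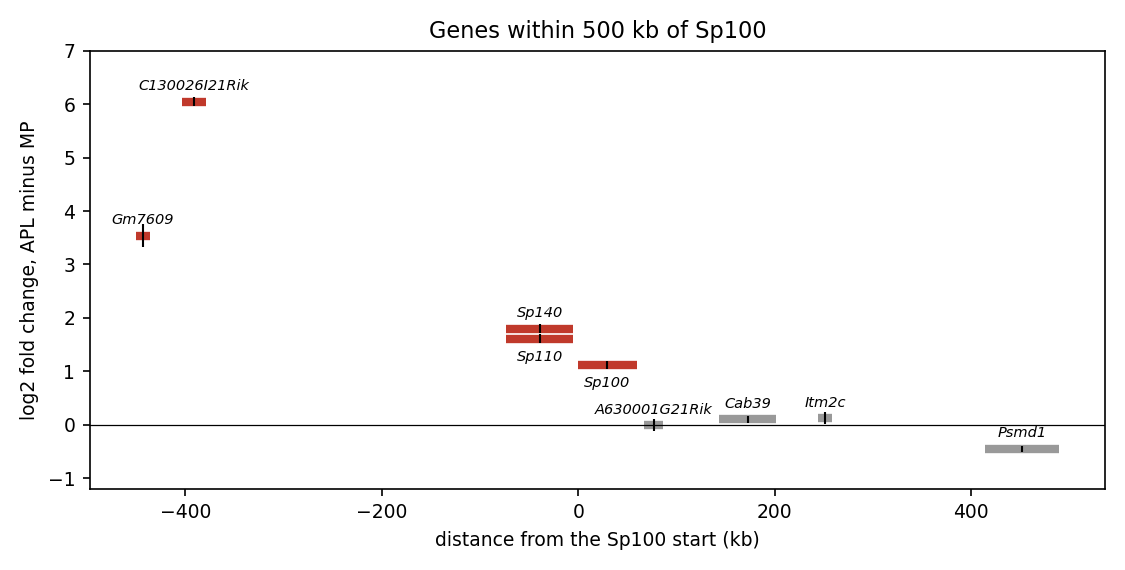
Log2 fold change (APL minus MP) of the 9 genes tested within 500 kb of the Sp100 start with a mean of at least 50 scaled fragments, against distance in kb; bars span the gene's locus, vertical lines are standard errors, and red marks genes called higher. Sp100, Sp110 and Sp140 form a block between 1.12 and 1.8, the genes to the right of it lie between −0.45 and 0.12, and C130026I21Rik reaches 6.05 on the left.

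Daxx and Rnf4 both lay lower in APL progenitors by less than the 1.5-fold limit. DAXX is a histone chaperone that works with ATRX and is recruited to the bodies by SUMO. Daxx (chromosome 17, 33909444 to 33915590) had 1105, 1011 and 1162 scaled fragments in MPs and 791, 917 and 913 in APL progenitors, with no overlap. The APL mean was 79.9% of the MP mean (log2 fold change −0.32 ± 0.09 SE, limma adjusted p = 0.012). RNF4 reads chains of SUMO and adds ubiquitin to the protein that carries them. Rnf4 (chromosome 5, 34336389 to 34353430) had 4377, 4400 and 4485 scaled fragments in MPs and 3398, 3532 and 3543 in APL progenitors. Its libraries were tight within each group and did not overlap, and the APL mean was 79.0% of the MP mean (log2 fold change −0.34 ± 0.06 SE, limma adjusted p = 0.0011). Relative to Pml, both were more abundant in APL progenitors than in MPs. The FPKM ratio of Daxx to Pml was 0.787 ± 0.0463 in MPs and 1.04 ± 0.0852 in APL progenitors, and that of Rnf4 to Pml 3.14 ± 0.130 and 3.99 ± 0.123 (n = 3 each; exact permutation p = 0.1 for both, the smallest possible).

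**Figure D3:**
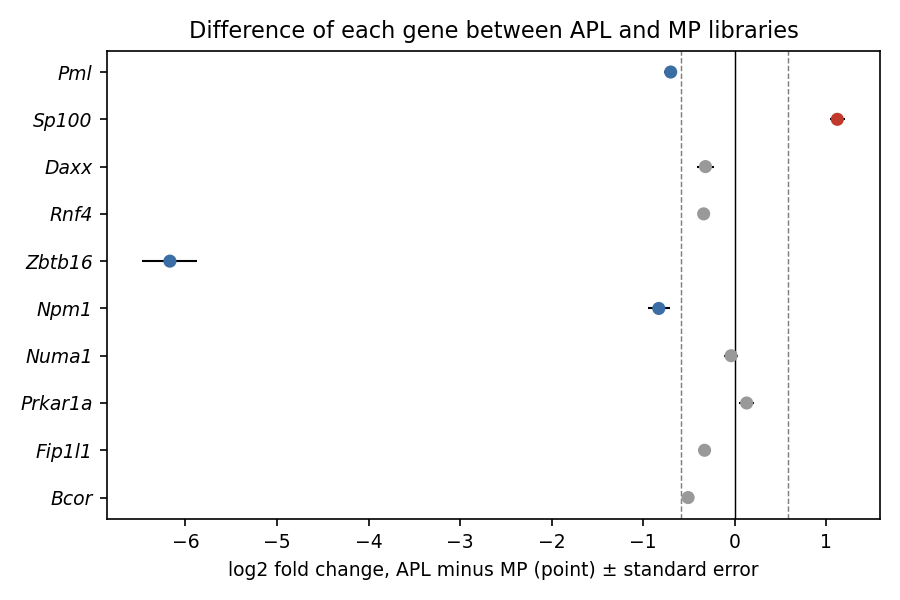
Log2 fold change, APL minus MP, of the 10 genes from limma, with standard errors; dashed lines mark a 1.5-fold difference, red and blue points are genes called higher and lower, and grey points were not called. Zbtb16 lies at −6.17 and Sp100 at 1.12, while Bcor, Fip1l1, Rnf4 and Daxx lie between −0.51 and −0.32, inside the dashed lines.

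Among the fusion partner genes, Zbtb16 showed the widest difference. It encodes PLZF, a zinc finger repressor of stem and progenitor cells, whose fusion with RARA is known to respond poorly to ATRA and arsenic. Zbtb16 (chromosome 9, 48654296 to 48835945) had 388, 360 and 288 scaled fragments in MPs and 2.36, 3.53 and 6.17 in APL progenitors. Before scaling, the APL values were 2, 4.07 and 5 fragments, so the gene was close to the limit of detection in each of these libraries, and at or under 3 fragments in APL library 1. On the log2 scale this was −6.17 ± 0.30 (SE; limma adjusted p = 3e-07). From the summed fragments, 1111 in MPs and 11 in APL progenitors, the MP level was 96.0-fold higher relative to depth (exact 95% interval 53.5 to 193, which covers counting error only). The size of the log2 value depends on the added constant, and with log2(FPKM + 1) it was −1.71. Even in MPs, Zbtb16 had the lowest level of the 10 genes per length, 2.38 ± 0.376 FPKM, against 0.0277 ± 0.0135 in APL progenitors.

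Npm1 was the most abundant of the 10 genes in both groups. It encodes nucleophosmin, a chaperone of the nucleolus that shuttles ribosome parts and holds the tumor suppressor ARF there. Npm1 (chromosome 11, 33152497 to 33163206) had 52640, 53339 and 62701 scaled fragments in MPs and 30410, 29657 and 34606 in APL progenitors. MP library 3 was the highest, and no APL library reached the lowest MP library. The mean fell to 56.1% of the MP level (log2 fold change −0.83 ± 0.12 SE, limma adjusted p = 0.00034), and without MP library 3 the log2 fold change was −0.75. In FPKM the level was 1284 ± 131 in MPs and 732 ± 45.8 in APL progenitors. Npm1 is known to have processed pseudogenes of near-identical sequence, so its value is uncertain to the extent that the authors' counting shared fragments with them.

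Bcor, a corepressor that binds BCL6 and is part of a variant Polycomb complex, and Fip1l1, a subunit of the mRNA polyadenylation machinery, lay lower in APL progenitors without reaching the fold limit. Bcor (chromosome X, 12036737 to 12160355) had 2831, 2872 and 2713 scaled fragments in MPs and 1926, 1967 and 2034 in APL progenitors, with no overlap. The APL mean was 70.4% of the MP mean (log2 fold change −0.51 ± 0.06 SE, limma adjusted p = 0.00011). With every library scaled to the same total, Bcor passed the fold limit (log2 fold change −0.64). Xist, which is expressed from the inactive X chromosome, differed between libraries of both groups, with 61314, 63138 and 22259 scaled fragments in MPs and 17188, 11120 and 11249 in APL progenitors, and its part in the Bcor values was not tested. MP library 3 also stood apart from the other MP libraries for genes of other chromosomes. It was lower for the dynein gene Dync1h1 on chromosome 12 (8046, 8204 and 5902 scaled fragments in MPs) and higher for Npm1. The cause was not tested. Fip1l1 (chromosome 5, 74535481 to 74702903) had 2560, 2580 and 2694 scaled fragments in MPs and 2104, 1918 and 2197 in APL progenitors, again without overlap. The APL mean was 79.4% of the MP mean (log2 fold change −0.33 ± 0.07 SE, limma adjusted p = 0.0031). The deposited Fip1l1 locus runs past the RefSeq end of the gene, 74598790, and overlaps Lnx1, and that of Bcor overlaps 2900008C10Rik. Neither overlapping gene exceeded 62.9 scaled fragments in any library, few beside those of Fip1l1 and Bcor.

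Numa1 and Prkar1a did not pass the test, and in both genes the groups overlapped. NUMA1 organizes the poles of the mitotic spindle. Numa1 (chromosome 7, 101969842 to 102014959) had 6845, 6851 and 5892 scaled fragments in MPs and 6045, 6690 and 6288 in APL progenitors. The lowest value of the 6 was that of MP library 3 and the groups overlapped (log2 fold change −0.04 ± 0.08 SE, limma adjusted p = 0.70). PRKAR1A is the regulatory subunit that holds protein kinase A inactive until cyclic AMP binds. Prkar1a (chromosome 11, 109650948 to 109669648) had 7385, 7586 and 8218 scaled fragments in MPs and 7953, 8585 and 8764 in APL progenitors, so MP library 3 lay above APL library 1. The difference on the log2 scale was 0.13 ± 0.08 (SE; limma adjusted p = 0.18). The sign of both genes turned under another scaling, to 0.02 for Numa1 with median ratio scaling and to −0.0047 for Prkar1a with the same total. For Prkar1a the limma adjusted p was under 0.05 with median ratio scaling (log2 fold change 0.19, adjusted p = 0.024) and without MP library 3 (0.17, adjusted p = 0.048), still under the fold limit.

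Per length, the order of the 10 genes in MPs was Npm1, Prkar1a, Rnf4, Fip1l1, Numa1, Pml, Sp100, Bcor, Daxx and Zbtb16. The ranges of Fip1l1 and Numa1, of Pml and Sp100 and of Bcor and Daxx overlapped, so these neighbours did not differ beyond their spread. In APL progenitors the order was Npm1, Prkar1a, Rnf4, Sp100, Numa1, Fip1l1, Daxx, Pml, Bcor and Zbtb16, and only the ranges of Daxx and Pml overlapped. Sp100 moved from the seventh place to the fourth, and Pml from the sixth to the eighth. Prkar1a had 92.8 ± 4.90 FPKM in MPs and 98.9 ± 3.90 in APL progenitors, Rnf4 56.5 ± 0.416 and 44.1 ± 0.686, Numa1 26.1 ± 2.57 and 26.0 ± 1.28, and Fip1l1 27.4 ± 0.585 and 22.1 ± 1.40. The other values were those of Daxx, with 14.2 ± 0.677 and 11.5 ± 0.917 FPKM, and Bcor, with 14.2 ± 0.533 and 10.2 ± 0.301.

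A total of 98 related genes in 9 lists set the 10 genes beside their partners. Among the 8 other RARA fusion partners, 2 were called higher and 2 lower, 50% against 46.1% of all genes, and the median log2 fold change was 0.29. Fndc3b, a membrane protein gene, rose from 842 ± 112 to 2112 ± 47.6 scaled fragments (log2 fold change 1.33), and Irf2bp2, a corepressor that binds IRF2, from 3333 ± 91.0 to 7529 ± 459 (1.17). Gtf2i, which encodes the transcription factor TFII-I, fell from 7429 ± 238 to 3341 ± 112 (−1.15), and Stat5b, a factor activated by cytokine receptors, from 3826 ± 321 to 2022 ± 44.9 (−0.92). The values of Stat5b are estimates, whole numbers in 0 of 6 libraries after division by the library's step. The partner genes of RARA thus moved in both directions, and the 4 others, Stat3, Nabp1, Tbl1xr1 and Tfg, had log2 fold changes between −0.39 and 0.48. Of the 19 other PML body proteins, 3 were called higher and 4 lower, 36.8% against 46.1% of all genes, with a median log2 fold change of −0.09. The 3 were Sp140, Sp110 and the kinase gene Hipk1 (0.87). The 4 included the histone chaperone gene Asf1a, which fell from 1671 ± 161 to 798 ± 41.9 scaled fragments (−1.06), and the exonuclease gene Isg20, which fell from 404 ± 53.1 to 187 ± 4.61 (−1.10), beside the helicase gene Blm (−0.76) and the p53 gene Trp53 (−0.69). The DAXX partner Atrx had −0.50 with overlapping groups, and the FPKM ratio of Atrx to Daxx was 1.58 ± 0.429 in MPs and 1.35 ± 0.311 in APL progenitors (exact permutation p = 0.6).

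Of the 19 genes of the SUMO pathway, 1 was called higher and 3 lower, 21.1% against 46.1% of all genes, with a median log2 fold change of −0.35. For the SUMO genes Sumo2 and Sumo3 and for Sae1 and Uba2, the subunits of the E1 enzyme that activates SUMO, the 3 APL libraries lay below the 3 MP libraries, with log2 fold changes between −0.63 (Sumo3, the single gene of the 4 that was called) and −0.46 (Sae1). Sumo3 lost its call with median ratio scaling (−0.57) and without MP library 3 (−0.52). These 4 were grouped by role after their values were seen. The groups also stood apart for 15 of the 19 genes of the pathway, 11 of them lower, and for 70.9% of all genes tested. The SUMO proteases Senp7 and Senp6, which trim SUMO chains, were called lower. Senp7 fell from 1398 ± 9.30 to 750 ± 85.2 scaled fragments (−0.90) and Senp6 from 3923 ± 356 to 2296 ± 79.1 (−0.77). The PIAS ligase genes had −0.08 for Pias1, 0.09 for Pias2, 0.36 for Pias3 and 0.42 for Pias4, and Rnf111, the other SUMO-targeted ubiquitin ligase gene on the list, −0.35, close to Rnf4. With the same total, which lowered the median of all genes by 0.13, 7 genes of the pathway were called, and with a 2-fold limit 0.

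The partners of the single genes gave these counts. For Npm1, 2 of the 5 genes of its family and of the nucleolus were called higher and 2 lower, 80% against 46.1% of all genes. Cdkn2a, the gene of ARF, was at 0 in all 3 MP libraries and had 111, 119 and 85.2 scaled fragments in APL progenitors, at least 37.6-fold higher against a floor of 3 fragments per library. This value covers the whole gene and does not tell the ARF transcript from others of Cdkn2a. Fbl, the methyltransferase of nucleolar RNA, fell from 6791 ± 1289 to 4340 ± 263 (−0.63) and Npm3 from 3095 ± 679 to 1966 ± 153 (−0.64), with MP library 3 the highest for both. Neither was called without MP library 3 (−0.48 and −0.46) or without APL library 1 (−0.58 and −0.57), nor with median ratio scaling (−0.57 for both). The values of Npm3 are estimates, whole numbers in 0 of 6 libraries after division by the library's step. Npm2, the other gene called higher, had means of 2.14 and 7.63 scaled fragments and lost its call with log2(FPKM + 1) and without MP library 2, APL library 2 or APL library 3 (limma adjusted p = 0.064, 0.1 and 0.088). For Prkar1a, 4 of the 7 genes of protein kinase A and its inhibitors were called lower and 0 higher, 57.1% against 46.1%. The regulatory subunit gene Prkar2b fell from 4929 ± 123 to 1487 ± 57.5 scaled fragments (−1.73 ± 0.06 SE, limma adjusted p = 6.7e-08) while its sister Prkar1a did not pass the test; the difference between them was not tested. The inhibitor gene Pkig fell from 876 ± 136 to 514 ± 25.2 (−0.76). The other 2 called, Prkar1b and Pkia, had at most 18.8 scaled fragments as a group mean, and neither catalytic subunit gene was called, with 0.01 for Prkaca and 0.31 for Prkacb.

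For Fip1l1, 2 of the 14 genes of mRNA cleavage and polyadenylation were called, both lower, 14.3% against 46.1% of all genes. The median log2 fold change of the 14 was −0.33, and −0.10 over all genes. Cpsf2, a subunit of the same complex, fell from 4180 ± 135 to 2633 ± 16.9 (−0.67) and Cpsf6 from 4382 ± 177 to 2896 ± 69.0 (−0.60). Cpsf6 lost its call with median ratio scaling (−0.53) and without MP library 2 (−0.56) or APL library 1 (−0.58). For Bcor, 2 of the 8 genes of its complex were called, both lower, 25% against 46.1% of all genes. These were Skp1a, from 5924 ± 417 to 3807 ± 75.3 (−0.64), and the demethylase gene Kdm2b, from 3285 ± 49.0 to 2162 ± 71.8 (−0.60). Both calls were lost with median ratio scaling, and that of Kdm2b without APL library 1 (−0.58). For Numa1, 2 of the 6 spindle partner genes were called higher and 2 lower, 66.7% against 46.1% of all genes. Gpsm2, which encodes LGN, the adaptor that places NuMA at the cell cortex, fell from 969 ± 85.4 to 455 ± 11.5 (−1.08), and its relative Gpsm1 from 482 ± 51.0 to 239 ± 31.2 (−1.01). Gnai3, a G protein subunit that anchors LGN, rose from 5719 ± 198 to 9241 ± 332 (0.69) and the dynactin gene Dctn1 from 4569 ± 210 to 6987 ± 533 (0.61). The adaptor genes thus moved down and the G protein and dynactin genes up, while Numa1 itself did not pass the test. With the same total, neither Gnai3 (0.56) nor Dctn1 (0.48) was called. Dctn1 also lost its call with quantile normalization (0.52) and without MP library 2 (0.58), APL library 2 (0.57) or APL library 3 (0.58).

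Since Pml and Sp100 are known interferon-induced genes, 12 genes of the interferon response were set beside them. Of these, 4 were called higher and 5 lower, 75.0% against 46.1% of all genes, with a median log2 fold change of 0.25. Oas1a, a sensor of double-stranded RNA, rose from 399 ± 26.4 to 928 ± 59.6 scaled fragments (1.22), and Isg15, a ubiquitin-like modifier, from 46.9 ± 9.99 to 76.9 ± 7.92 (0.72, adjusted p = 0.017 from limma). After division by the library's step, Oas1a was a whole number in 0 of 6 libraries within 0.02, so its values are estimates. Usp18, the protease that removes ISG15, fell from 113 ± 13.7 to 16.9 ± 9.43 (−2.78), and the interferon regulatory factor gene Irf7 from 138 ± 32.5 to 54.2 ± 4.19 (−1.31). The interferon genes did not move one way, just as Pml and Sp100 did not. Isg15 lost its call without MP library 2 (0.55, adjusted p = 0.052) and without APL library 2 (0.64, adjusted p = 0.064).

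**Figure D4:**
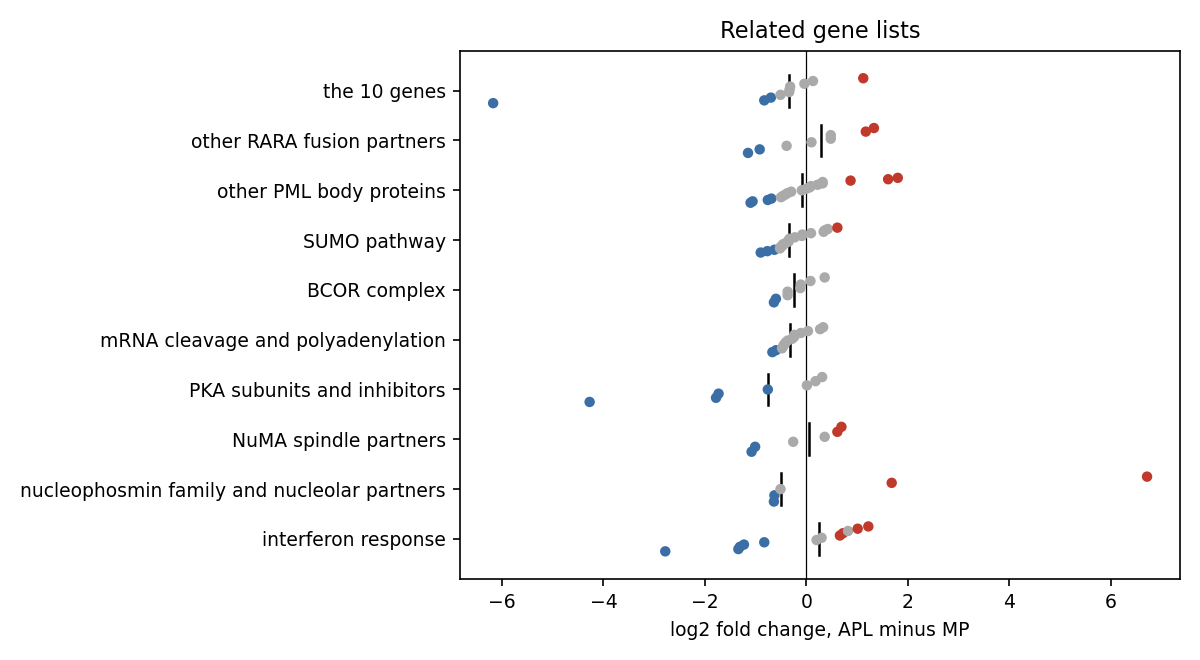
Log2 fold change, APL minus MP, of each gene (point) of the 10 genes and of the 9 related lists; red and blue points are genes called higher and lower, grey points were not called, and black bars are list medians. The SUMO pathway (median −0.35) and the polyadenylation genes (−0.33) lie mostly inside the fold limit, with 15 of 19 and 12 of 14 genes not called, while the interferon list spreads from −2.78 to 1.22 and Cdkn2a stands far to the right at 6.71, a fitted value against MP libraries at 0.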

How the data were processed

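Total RNA of sorted cells was sequenced after TruSeq preparation. The submitters' processing notes name CASAVA 1.8, TopHat2 2.0.6 and build mm10, whereas the methods of the study name STAR, mm9, HTSeq-count and DESeq2; the loci follow GRCm38 (mm10). The program that made the gene table is not given in the sources used here. The deposited FPKM values were normalized by the authors to transcript length and mapped fragments. The deposited fragment columns hold a signal, namely fragments per gene that the authors estimated and multiplied by a library factor. The step of a library was its most frequent value between 0.5 and 1.5, and between 87.3% and 89.4% of values under 1000 fragments were whole multiples of it within 0.02, too few for a count model.

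limma 3.58.1 (R 4.3.3; lmFit, eBayes with a trend) was fitted on log2(scaled fragments + 1) for 14595 genes (a minimum of 1 in 3 or more libraries), without a block. On data simulated with 14595 genes it recovered 195 of 200 changed genes with 8 false calls. In the libraries themselves 6725 of 14595 genes were called. Recovery at that share, and recovery of genes near the fold limit, was not tested. Levels between genes use FPKM. Single values were compared with two-sided exact permutation tests. Python 3.11.15 and matplotlib 3.10.9 made the figures. The 10 genes, the related lists and the markers were chosen with earlier results of these data known. Named beside the 10 genes were Rara, Kit and, from each list, up to 2 called genes with the largest increase and up to 2 with the largest decrease at a mean of at least 50 scaled fragments (some genes of the SUMO list enter its counts but are not reported here by name); other genes, among them Xist and the neighbours of Sp100, were named after their values were seen. RefSeq start regions were searched for 8 of the 10 genes.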

Additional observations from a re-analysis of the deposited data

How the results depend on the processing

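Of 20 alternatives, 18 refitted the test (filters, pseudocounts, scaling, FPKM, voom, the replicate block and each library left out) and 2 changed the threshold; edgeR and DESeq2 were not run because too few values were whole fragments. Among 180 values of the 10 genes, 177 kept direction and call. The exceptions were Bcor, called with the same total (−0.64), Numa1, reversed to 0.02 with median ratio scaling, and Prkar1a, reversed to −0.0047 with the same total. Called genes among the 10 numbered 4, and 2 at a fold over 2; leaving out 1 library gave 4 each time. Their median log2 fold change of −0.34 became −0.47 with the same total and lay between −0.37 and −0.32 with 1 library left out.

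With a fold over 2, 4 other PML body genes, 0 SUMO genes, 0 BCOR complex genes, 0 polyadenylation genes, 2 NuMA partners and 2 nucleolar genes were called. With the same total, 7 SUMO genes, 4 polyadenylation genes and 2 NuMA partners were called. With median ratio scaling the calls were 0 in the BCOR complex, 1 in polyadenylation and 2 in the nucleolar list. With log2(FPKM + 1), 4476 genes were called in place of 6725, and 2 of the protein kinase A list, as with a mean of at least 10; requiring at least 1 in all 6 libraries gave 2 nucleolar genes, since fewer were tested. The cause of the other shifts was not tested. Leaving out 1 library gave 1 to 2 BCOR complex genes (1 without APL library 1), 1 to 2 polyadenylation genes (1 without MP library 2 or APL library 1) and 2 to 4 nucleolar genes (2 without MP library 3 or APL library 1). Among 539 values of the 30 other genes given by the naming rule, 513 kept direction and call, 26 lost the call and 0 turned.

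With the replicate block, 6753 genes were called in all and 6673 of the 6725 calls were shared, and the 10 genes kept their 4 calls. Deviations of same-numbered libraries had correlations of 0.135, −0.00159 and 0.127 over 11061 genes, so the numbers were not taken to pair them. Depth limits Zbtb16, at 2 to 5 fragments per APL library.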
